A study of Homo sapiens with 18 samples.

Results

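The 3 genes of the active human DNA methyltransferases, DNMT3B, DNMT3A and DNMT1, were examined for 3 histone marks in NB4 cells, an established acute promyelocytic leukemia line. Cells were either not treated or kept for 24 h in 10 µM maltonis, a water-soluble molecule derived from maltol, and no other agent distinguished the groups. ChIP-seq, which sequences the DNA bound by an immunoselected histone mark, was run in biological triplicate for H3K4me3, H3K27ac and H3K9me3, so that 18 libraries fell into 6 groups of 3. NB4 is 1 cell line, and its identity was taken from the labels, since no annotation of the build of the files was used to look at marker genes. Members were all called peaks that overlapped a gene or the 10 kb on either side of it in hg19, namely DNMT3B at chr20:31350191-31397162 (plus strand), DNMT3A at chr2:25455830-25565459 (minus strand) and DNMT1 at chr19:10244022-10305755 (minus strand). They numbered 197 of the 501863 peaks in the 18 lists, with 37 at DNMT3B, 99 at DNMT3A and 61 at DNMT1. Overlapping peaks of the 6 libraries of a mark were joined into 29 regions, 12 for H3K4me3, 13 for H3K27ac and 4 for H3K9me3. Of these, 15 were called in all 6 libraries (5 of 12 for H3K4me3, 7 of 13 for H3K27ac and 3 of 4 for H3K9me3, where 46.1%, 54.2% and 30.3% of all regions of the mark were) and 7 in a single library.

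DNA methyltransferases add methyl groups to cytosines, chiefly those followed by a guanine (CG). DNMT1 copies existing methylation onto the new strand after replication, whereas DNMT3A and DNMT3B place methylation at sites that lacked it, and DNMT3A is a gene that is often mutated in myeloid leukemia. H3K4me3 marks active gene starts, H3K27ac marks active starts and enhancers, and H3K9me3 is best known from silent chromatin. The enzymes and the marks are linked, as DNMT3A and DNMT3B carry a domain that binds the histone H3 tail when lysine 4 bears no methyl group, and the DNMT1 partner UHRF1 binds H3K9me3.

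The sequences just before the gene starts are shown because peaks described below lie over or beside them. CG content is also the property that the enzymes themselves read. They were taken from the RefSeq promoter table (GRCh38.p14), are 250 bases long, run 5′ to 3′ along the gene and end 1 base before the start, with each CG in capitals. DNMT1 is at chr19:10194954-10195203, the outermost DNMT3A start at chr2:25342591-25342840 and an internal DNMT3A start at chr2:25252316-25252565, all on the minus strand. The DNMT3B entry was for a start 17.5 kb inside the gene and is not printed.
DNMT1 start: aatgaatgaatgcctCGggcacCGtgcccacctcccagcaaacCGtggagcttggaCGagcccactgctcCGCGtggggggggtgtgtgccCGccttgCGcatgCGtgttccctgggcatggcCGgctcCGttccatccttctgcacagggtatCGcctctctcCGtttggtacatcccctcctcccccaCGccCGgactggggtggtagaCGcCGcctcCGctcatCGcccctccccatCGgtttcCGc
DNMT3A outermost start: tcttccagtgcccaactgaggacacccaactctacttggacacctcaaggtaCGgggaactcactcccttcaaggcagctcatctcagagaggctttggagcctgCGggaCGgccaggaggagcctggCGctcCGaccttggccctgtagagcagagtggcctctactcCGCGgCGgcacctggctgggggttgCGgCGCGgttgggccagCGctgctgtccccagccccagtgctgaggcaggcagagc
DNMT3A internal start: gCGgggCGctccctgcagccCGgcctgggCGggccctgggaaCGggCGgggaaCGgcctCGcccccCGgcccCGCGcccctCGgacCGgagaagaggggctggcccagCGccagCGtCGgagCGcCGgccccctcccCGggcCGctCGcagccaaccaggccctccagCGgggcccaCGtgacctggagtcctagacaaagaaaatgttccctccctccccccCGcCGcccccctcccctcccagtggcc
The DNMT1 stretch holds 21 CG, a number reached by 30.2% of the 35116 promoters in the table. The internal DNMT3A stretch holds 25 CG (reached by 21.6%) and the outermost DNMT3A stretch 12 CG (reached by 48.5%). At least 1 CG was present in 93.9% of all promoters.

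Peaks were called separately in each library, so the libraries serve as replicates. H3K4me3 lists held 17335 to 17755 peaks with a median width of 1260 to 1293 bp in untreated cells, and 15841 to 16383 peaks of 1521 to 1575 bp after maltonis. Reads in peaks numbered 17974940 to 20773316 in the H3K27ac lists and 2595814 to 3366296 in the H3K9me3 lists, whereas H3K4me3 lists hold no read counts. H3K4me3 peaks carry a fold enrichment over local background and a −log10 q value, both averaged over the length of the peak, so that a longer peak can have a lower average. H3K27ac and H3K9me3 peaks carry a read count and an island score, a sum of significance over the peak, and both grow with the length that was called. The changes below are therefore given with that length. With 3 libraries against 3, an exact two-sided permutation test of a single value cannot go below p = 0.1, and overlap of the conditions is stated instead.

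**Figure D1:**
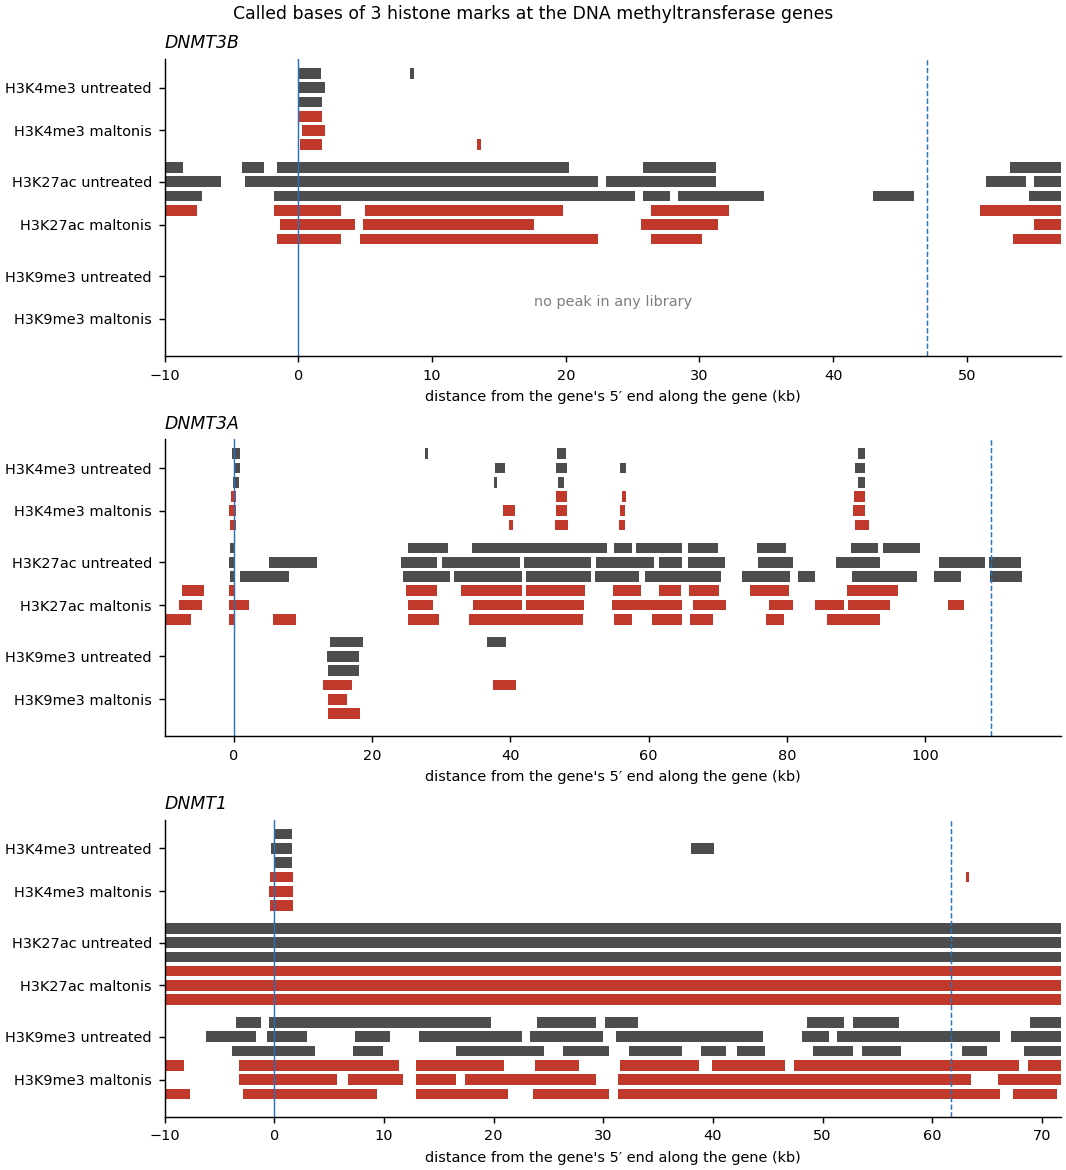
Called bases of H3K4me3, H3K27ac and H3K9me3 along DNMT3B, DNMT3A and DNMT1, with 1 row per library (grey, untreated replicates 1 to 3 from the top; red, maltonis replicates 1 to 3). The x axis is the distance in kb from the 5′ end (solid line) towards the 3′ end (dashed line), with 10 kb on either side. The H3K27ac peak over the DNMT3B 5′ end runs for 21800 to 27000 bp in untreated cells and 4800 to 5600 bp after maltonis, and H3K9me3 covers more of DNMT1 after maltonis.

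At DNMT3B the H3K27ac domain over the 5′ end shrank and split, while the H3K4me3 peak overlapped between conditions in width and fold enrichment. In untreated cells a single H3K27ac peak covered the 5′ end and ran into the gene for 20.2, 22.4 and 25.2 kb. After maltonis the peak at the 5′ end stopped 3.2, 4.2 and 3.2 kb into the gene, and a second peak began 5.0, 4.8 and 4.6 kb from the 5′ end. The width of the peak over the 5′ end was 21800, 26400 and 27000 bp in the untreated libraries and 5000, 5600 and 4800 bp in the maltonis libraries, so the conditions were far apart. The peak over the 5′ end ranked 820, 602 and 572 by width in the untreated lists and 12142, 9857 and 11030 in the maltonis lists, which held 34720 to 36288 and 32024 to 35443 peaks. The widest peak of the region, wherever it lay, narrowed without overlap to 14800, 12800 and 17800 bp, as in 25.8% of all regions. H3K27ac peaks also narrowed over the whole lists, with a median width of 4200 to 4600 bp in untreated cells and 3200 to 4000 bp after maltonis. Bases held together in 1 peak in every untreated library and divided over at least 2 peaks in every maltonis library were found in 3.07% of the 20018 H3K27ac regions called in all 6 libraries, and the opposite pattern in 0.390%. Both shares cover regions of every width, and none was computed among regions as wide as this one. The measure was chosen after the DNMT3B peaks had been seen.

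The reads moved the same way. Over the whole 39.0-kb region (chr20:31346001-31385000, from 4.2 kb upstream to 34.8 kb into the gene) the untreated libraries held 2504, 2799 and 2751 H3K27ac reads and the maltonis libraries 1660, 1901 and 1805. No maltonis library reached the lowest untreated one, as in 35.8% of all regions, and the means were 2685 ± 158 and 1789 ± 121 reads (SD, n = 3). The log2 fold change was −0.54 (SE 0.034, FDR 9.21e-07), which fell short of the fold of 0.58 on the log2 scale that a call also required. A decrease at an FDR of at most 0.01 was found in 27.3% of all regions and a called decrease in 19.2%. A lower fold change than that of DNMT3B was found in 23.4% of regions. The called length fell with the reads, from 28800, 34600 and 35400 bp to 25600, 24200 and 26400 bp (without overlap, as in 28.2% of regions), and reads per called kb overlapped (86.9, 80.9 and 77.7 against 64.8, 78.6 and 68.4). With the called length as an offset in the fit, which brought the median change of all regions to 0.16 on the log2 scale, the fold change was −0.17 (FDR 0.165).

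The 5′ piece and the gene-body piece differed in density. After maltonis the peak at the DNMT3B 5′ end held 722, 788 and 742 reads, or 144, 141 and 155 per kb, and the second peak 774, 883 and 932 reads, or 52.3, 69.0 and 52.4 per kb. The median over all H3K27ac peaks of a list was 48.7 to 54.7 reads per kb. The island score of the strongest peak fell from 8853, 10040 and 9076 to 4541, 4575 and 4546. Its percentile within the list fell from 91.6, 92.7 and 91.2 to 77.3, 77.6 and 78.8, a loss of rank without overlap that 32.7% of all regions shared. The percentile by reads per kb rose over the same peaks, from 76.8, 74.2 and 72.7 to 86.2, 80.2 and 84.5 (as in 12.7% of regions), so the direction of the rank depended on whether length counted.

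H3K4me3 at the DNMT3B 5′ end (chr20:31350200-31352213) reached 1.7 to 2.0 kb into the gene in all 6 libraries. Its upstream edge lay 46, 16 and 9 bp inside the gene in untreated cells and 52, 270 and 129 bp inside after maltonis, without overlap, and its downstream edge overlapped. At least 1 edge was displaced inward without overlap in 14.1% of the 12395 H3K4me3 regions with 1 peak in each library. Its width was 1648, 1968 and 1774 bp in untreated cells and 1687, 1753 and 1651 bp after maltonis, which overlap (log2 fold change −0.08, SE 0.074, FDR 0.421). The fold enrichment was 5.23, 4.84 and 5.00 against 4.58, 5.02 and 4.48 and overlapped as well (log2 fold change −0.10, SE 0.060, FDR 0.197). Across all 12470 regions the median change was −0.14 in fold enrichment and 0.19 in width, on the log2 scale. Once each library was centred on its own median, the DNMT3B peak was narrower by log2 −0.31 (FDR 0.0470) and its fold enrichment moved to 0.06 (FDR 0.432). Lower widths were called in 12.4% of regions after this centring.

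The −log10 q of the same DNMT3B peak fell from 76.4, 61.9 and 67.0 to 35.6, 43.0 and 30.6, with no overlap, as in 39.6% of all regions. Its log2 fold change was −0.92 (SE 0.18, FDR 0.00162), when −log10 q was put in place of fold enrichment as a measure added after the data had been seen. That measure was lower in 31.2% of all regions at an FDR of at most 0.05, its median change over all regions was −0.26, and 12.4% of regions fell further than DNMT3B. Within the list the peak went from percentiles 90.6, 88.1 and 90.6 to 78.1, 76.3 and 69.8 by −log10 q, a fall without overlap shared by 37.6% of regions, whereas its percentiles by fold enrichment overlapped (74.9, 67.0 and 73.3 against 74.6, 79.3 and 70.7). Of the other DNMT3B regions of this mark, 1 was called only in untreated replicate 1 and 1 only in maltonis replicate 3.

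The flanks of DNMT3B gave further H3K27ac regions. A weak region 14.8 to 5.8 kb upstream was called in 3 untreated libraries (170, 203 and 101 reads) and in 1 maltonis library (128 reads). A region beyond the 3′ end (chr20:31401201-31428800) held 1537, 1537 and 1490 reads in untreated cells and 1389, 1732 and 1487 after maltonis. These values overlap, and the fitted change was 0.06 (SE 0.046, FDR 0.306). No H3K9me3 peak was called in the DNMT3B window in any of the 6 libraries.

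DNMT3A carried more separate regions than the other genes. Its H3K4me3 peaks lay at the 5′ end (chr2:25564551-25566087), at 46.4 to 48.4 kb into the gene (chr2:25517052-25519038) and at 89.6 to 91.8 kb (chr2:25473623-25475866), and these 3 regions were called in all 6 libraries. The last of them is taken here as the internal start shown above, because RefSeq starts lie 90.3 to 90.5 kb from the outermost start in GRCh38.p14. Both distances were measured within their own build. Another region, at 55.8 to 56.8 kb was called in 1 untreated library (fold enrichment 2.62) and in 3 maltonis libraries (3.13, 3.10 and 3.56).

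The H3K4me3 peak at the DNMT3A 5′ end moved upstream after maltonis. Its downstream edge lay 908, 900 and 818 bp inside the gene in untreated cells and 320, 302 and 300 bp inside after maltonis. Its upstream edge lay 176, 25 and 90 bp before the 5′ end in untreated cells and 422, 628 and 578 bp before it after maltonis. Neither edge overlapped between conditions. Of the 12395 H3K4me3 regions with 1 peak in each library, 7.21% had both edges displaced in the same direction without overlap, and 19.6% had both edges displaced outward, as at DNMT1 below. The width itself overlapped, at 1085, 926 and 909 bp against 743, 931 and 879 bp (log2 fold change −0.20, SE 0.11, FDR 0.215), as did the fold enrichment, at 3.88, 3.17 and 3.12 against 3.53, 3.48 and 2.91 (log2 fold change −0.04, SE 0.10, FDR 0.790). With each library centred on its median the width was lower by −0.43 on the log2 scale (FDR 0.0428). This was a weak peak, at percentiles of 23.1 to 46.4 of its lists by fold enrichment. Edge positions were compared after the peaks had been seen.

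**Figure D2:**
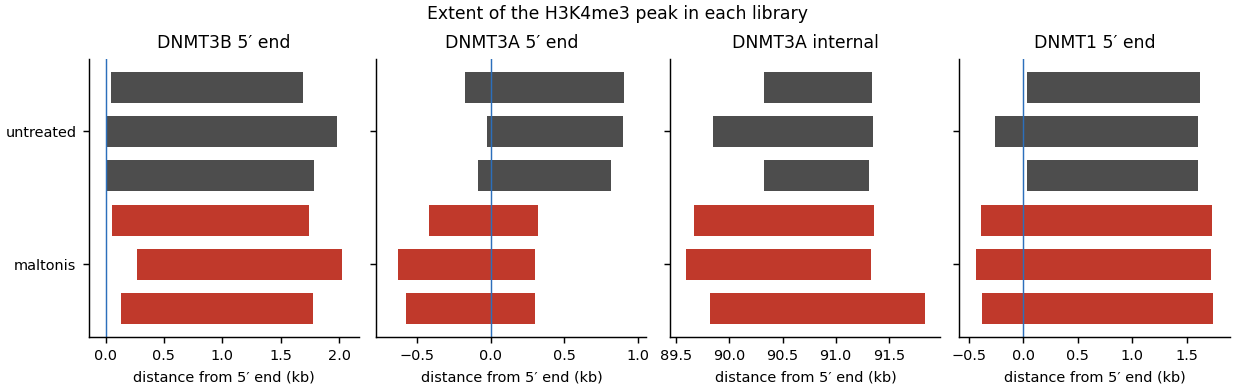
Extent of the H3K4me3 peak in each library (grey, untreated; red, maltonis) at the DNMT3B, DNMT3A and DNMT1 5′ ends and at the internal DNMT3A start. The x axis is the distance in kb from the annotated 5′ end of the gene (vertical line), increasing into the gene. At the DNMT3A 5′ end both edges move upstream, at DNMT1 both move outward, and at DNMT3B the upstream edge lies 9 to 46 bp inside the gene in untreated cells and 52 to 270 bp after maltonis.

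At the internal DNMT3A start the H3K4me3 peak became wider and its average fold enrichment lower. The width was 1025, 1506 and 987 bp in untreated cells and 1699, 1742 and 2022 bp after maltonis, without overlap as in 54.8% of regions (log2 fold change 0.66, SE 0.18, FDR 0.0387). A wider peak was called in 38.5% of all regions, and 94.3% of regions had a lower change in width than this one. The fold enrichment was 7.06, 5.47 and 7.17 against 4.94, 5.32 and 5.34, without overlap as in 52.8% of regions (log2 fold change −0.33, SE 0.10, FDR 0.0286), and a decrease was called in 43.5% of regions. The product of both, a measure of the whole enrichment under the peak, did not pass the test (0.33, FDR 0.134). With each library centred on its median, neither the width (0.43, FDR 0.153) nor the fold enrichment (−0.17, FDR 0.2665) passed. Neither call was stable to the loss of a library. The width was no longer called without any 1 of untreated replicates 1 and 3 and maltonis replicates 1, 2 and 3 (FDR 0.0740 to 0.105), and the fold enrichment without untreated replicate 1 or 3 or maltonis replicate 1 or 3 (FDR 0.0518 to 0.0914).

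The intragenic H3K4me3 peak at 46.4 to 48.4 kb moved the other way in fold enrichment, though not past the threshold. It stood at 2.79, 2.78 and 3.40 in untreated cells and 3.54, 3.99 and 3.12 after maltonis, which overlap (log2 fold change 0.25, SE 0.11, FDR 0.0852), and 97.9% of regions had a lower change. The width also overlapped, at 1272, 1580 and 871 bp against 1577, 1627 and 1987 bp. Fold enrichment times width rose by 0.76 on the log2 scale (FDR 0.0457), a rise called in 4.66% of regions, and −log10 q went from 2.71, 2.30 and 4.69 to 6.46, 9.70 and 4.83 without overlap, as in 9.03% of regions. The fold enrichment passed the threshold without untreated replicate 3 (0.34, FDR 0.0310) and without maltonis replicate 3 (0.34, FDR 0.0355). It also passed with each library centred on its median (0.40, FDR 0.0306), where a rise was called in 14.5% of regions.

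H3K27ac covered DNMT3A in several pieces that did not share a direction. The largest lay 24.3 to 71.3 kb into the gene (chr2:25494201-25541200). It held 3033, 3201 and 3121 reads in untreated cells and 2141, 2485 and 2361 after maltonis, without overlap, as in 35.8% of regions. Its log2 fold change was −0.38 (SE 0.027, FDR 2.08e-06), under the fold needed for a call, and 30.2% of regions fell further. A decrease at the FDR alone was found in 27.3% of all regions. The called length fell from 39000, 43400 and 43400 bp to 33600, 34000 and 31000 bp, without overlap, as in 28.2% of regions. With that length as an offset the change in reads was −0.03 (FDR 0.835). The strongest peak in this piece kept its island score, at 9001, 7498 and 8399 against 7407, 8361 and 8891, which overlap.

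The piece over the internal DNMT3A start (chr2:25466201-25481400) rose instead. It held 1087, 1097 and 1138 H3K27ac reads in untreated cells and 1226, 1441 and 1329 after maltonis, without overlap, as in 29.0% of regions. The log2 fold change was 0.31 (SE 0.039, FDR 7.91e-05), again under the fold needed for a call. A rise at an FDR of at most 0.01 was found in 28.9% of all regions. The called length overlapped, at 9400, 6400 and 9400 bp against 7400, 10200 and 7600 bp, and reads per kb overlapped too. With that length as an offset the change was 0.30 (FDR 0.212), which no longer passed.

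A smaller piece lay 73.5 to 80.9 kb into DNMT3A (chr2:25484601-25492000). Of the 7 H3K27ac regions called in all 6 libraries it alone met both criteria, which 19.2% of all regions met for a decrease. It fell from 271, 288 and 344 reads to 204, 187 and 137, without overlap, as in 35.8% of regions. The log2 fold change was −0.72 (SE 0.18, FDR 0.00514). The call was lost without any 1 library other than maltonis replicate 1 (FDR 0.0103 to 0.0242) and with the called length as an offset (−0.22, FDR 0.327). The length itself overlapped, at 4200, 5000 and 7000 bp against 5600, 3400 and 2600 bp.

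At the DNMT3A 5′ end H3K27ac was weak, with more reads in the peak after maltonis. The joined region also takes in peaks further inside the gene and showed no clear change (58, 251 and 251 reads against 111, 185 and 200, log2 fold change −0.13, SE 0.44, FDR 0.811). The peak over the 5′ end alone held 58, 60 and 66 reads in untreated cells and 111, 185 and 114 after maltonis, on 800, 1000 and 800 bp against 1000, 3000 and 1000 bp. Reads per kb of this peak overlapped, at 72.5, 60.0 and 82.5 against 111, 61.7 and 114. Its log2 fold change was 1.19 (SE 0.20, FDR 0.000614), from a fit that was added after the data had been seen and in which all other regions stayed as they were. A called rise was found in 8.18% of all regions. The island score percentile of the region went from 26.5, 31.8 and 33.2 to 50.6, 57.9 and 54.2, a gain of rank without overlap shared by 24.6% of regions. The H3K4me3 peak that moved upstream lies over the same 5′ end.

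Just upstream, 4.3 to 9.7 kb before the DNMT3A 5′ end (chr2:25569801-25575200), H3K27ac was called in 3 maltonis libraries, with 86, 128 and 118 reads, and in 0 untreated libraries. This was 1 of 13 H3K27ac member regions, and such maltonis-exclusive regions were 1.65% of all 36947 H3K27ac regions. The call was lost when the weakest peaks of each list were dropped to leave the strongest 75%. The maltonis-exclusive pattern was seen at no H3K4me3 or H3K9me3 member, where it made up 0.836% and 0.781% of all regions. No member region was called in 3 untreated and 0 maltonis libraries, a pattern found in 6.04% of H3K27ac, 1.66% of H3K4me3 and 2.32% of H3K9me3 regions. At the 3′ side of DNMT3A, 1 weak H3K27ac region was called in 2 untreated and 0 maltonis libraries and another in 2 and 1. The regions called in a single library were 5 of H3K4me3 and 2 of H3K27ac, and an H3K4me3 region 37.7 to 40.7 kb into DNMT3A was called in 2 libraries of each condition.

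H3K9me3 at DNMT3A was limited to 2 short regions. One, 12.9 to 18.7 kb into the gene (chr2:25546801-25552600), was called in all 6 libraries with 111, 102 and 118 reads in untreated cells and 92, 65 and 93 after maltonis. The read counts did not overlap, as in the 15.0% of all regions that were lower in this way, but the fitted change did not pass the test (−0.28, SE 0.24, FDR 0.682). The other, 36.7 to 40.9 kb into the gene, was called in replicate 1 of each condition, with 41 and 53 reads.

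**Figure D3:**
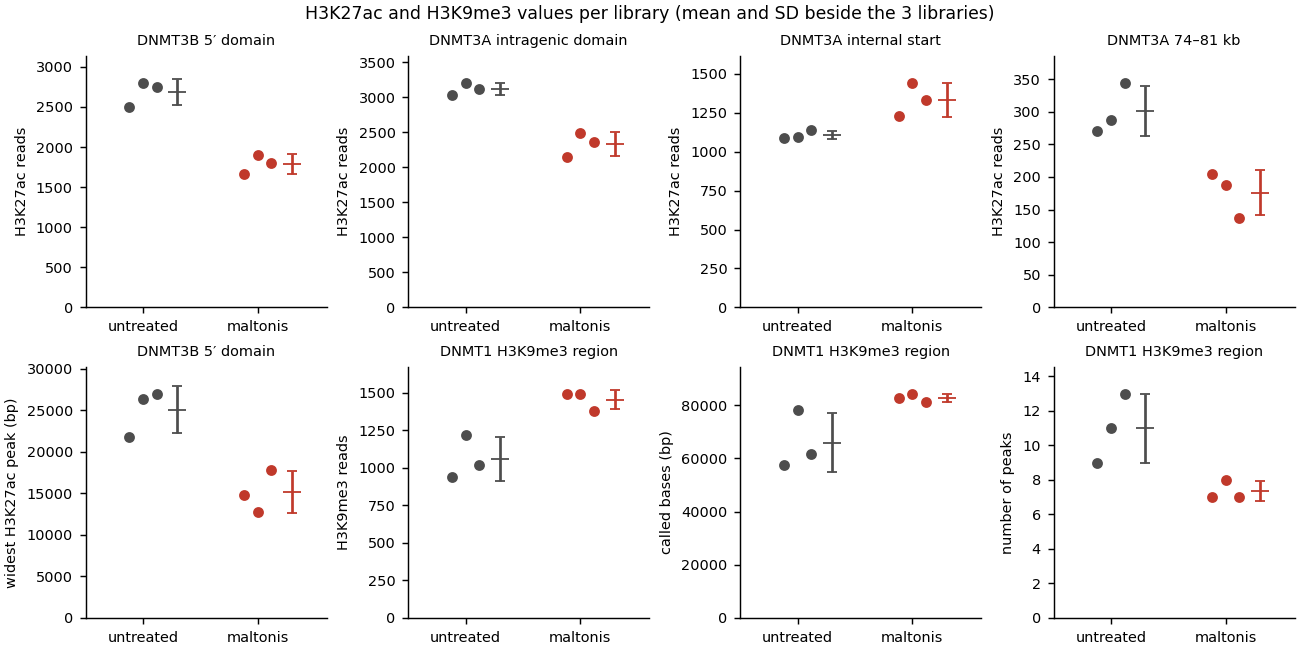
H3K27ac and H3K9me3 values of each library (points, 3 untreated in grey and 3 maltonis in red) with the mean and SD beside them, for 4 DNMT3B and DNMT3A H3K27ac regions and the H3K9me3 region of DNMT1. The y axes, from 0, give reads per region, base pairs or number of peaks as labelled. The 8 panels are a selection in which the conditions do not overlap. H3K27ac reads overlap at the regions not shown, over the DNMT3A 5′ end, beyond the DNMT3B 3′ end and over DNMT1. Of all H3K27ac regions, 35.8% were lower and 29.0% higher in reads without overlap.

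DNMT1 differed from the de novo enzymes in carrying all 3 marks at its 5′ end, within 1 kb, in every library, and it was the gene at which H3K9me3 rose. A 96.6-kb H3K9me3 region (chr19:10215401-10312000) ran from 6.2 kb upstream of the 5′ end through the whole gene and beyond its 3′ end. It held 937, 1217 and 1021 reads in untreated cells and 1494, 1491 and 1378 after maltonis, without overlap (as in 5.00% of regions), and the means were 1058 ± 144 and 1454 ± 66.1 reads (SD, n = 3). The log2 fold change was 0.58 (0.579 before rounding, SE 0.084, FDR 0.00710), just under the fold of 0.58 that a call required. Of all 14226 H3K9me3 regions called in all 6 libraries, 0.401% rose at an FDR of at most 0.01. The fold was passed as well by 0.253%, and 93.7% had a lower fold change. The shares given for this region count regions of every length and read number, and none was computed among regions as large as this one. The call was made without untreated replicate 2 (0.69, FDR 0.00295). Leaving out any other library raised the FDR to between 0.0248 and 0.0424.

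At DNMT1, H3K9me3 was called over more bases and in fewer peaks after maltonis. The whole H3K9me3 lists held 33923 to 35171 peaks with a median width of 3800 to 4000 bp in untreated cells. After maltonis they held 29432 to 29997 peaks with a median width of 4000 to 4600 bp. Called bases in the region went from 57400, 78400 and 61800 bp to 82600, 84400 and 81200 bp, without overlap, as in 5.35% of regions. They lay in 9, 11 and 13 peaks in untreated cells and in 7, 8 and 7 peaks after maltonis, a lower number without overlap that 0.738% of regions showed. That share counts all 14226 regions, and a region with 1 peak in each untreated library cannot show such a fall. No share among regions of many peaks was computed. The widest peak grew from 20200, 14800 and 12600 bp to 21600, 32200 and 34800 bp, as in 5.17% of regions. Reads per called kb rose from 16.3, 15.5 and 16.5 to 18.1, 17.7 and 17.0, as in 2.79% of regions, while the median over all H3K9me3 peaks of a list was 16.5 to 16.8 in untreated cells and 15.7 to 16.2 after maltonis. With the called length as an offset the change in reads was 0.25 (FDR 0.149). The density of the mark over DNMT1 was thus close to that of an ordinary H3K9me3 peak.

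Within the DNMT1 window, the gene with 10 kb on either side, H3K9me3 covered 41.2, 62.6 and 45.0 kb in untreated cells and 65.7, 67.6 and 68.8 kb after maltonis. The share of the window rose from 60.7% to 82.4%, and the conditions did not overlap (exact permutation p = 0.100, the smallest possible). Over the whole lists H3K9me3 covered 162.8 to 171.5 Mb in untreated cells and 141.5 to 170.5 Mb after maltonis. The H3K9me3 peak over the 5′ end itself was 20.2, 3.6 and 7.6 kb wide in untreated cells and 14.6, 9.0 and 12.2 kb wide after maltonis, which overlap. A second H3K9me3 region, 7.6 to 20.8 kb upstream (chr19:10313401-10326600), held 61, 44 and 83 reads against 154, 91 and 87, without overlap, but did not pass the test (0.92, SE 0.29, FDR 0.171). Of the 3 H3K9me3 regions tested at the genes, 0 met both criteria in edgeR and 0 in DESeq2, and 1 passed the FDR alone in edgeR. An unadjusted edgeR p below 0.05 was found at 2 of the 3, for a rise. Of all 14226 regions, 1223 were higher and 778 lower at that unadjusted p.

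H3K4me3 at the DNMT1 5′ end (chr19:10304011-10306191) ranked near the top of every list by −log10 q, at percentiles of 99.8 to 99.9. By fold enrichment its percentiles fell from 85.9, 79.1 and 83.4 to 69.2, 67.0 and 69.5, without overlap, as in 30.2% of regions. The peak widened from 1586, 1856 and 1569 bp to 2121, 2156 and 2124 bp, without overlap, as in 54.8% of regions. The log2 fold change was 0.36 (SE 0.074, FDR 0.0172), and a wider peak was called in 38.5% of all regions. The downstream edge moved from 1619, 1600 and 1602 bp to 1730, 1719 and 1744 bp inside the gene. The upstream edge lay 34 bp inside the gene in untreated replicates 1 and 3 and 255 bp before its 5′ end in replicate 2, and it lay 390, 436 and 379 bp before the 5′ end after maltonis. The fold enrichment fell from 5.99, 5.48 and 5.62 to 4.37, 4.51 and 4.44, without overlap, as in 52.8% of regions. Its log2 fold change was −0.36 (SE 0.051, FDR 0.00113), a decrease was called in 43.5% of regions, and 12.4% fell further. Fold enrichment times width did not pass the test (log2 fold change −0.00, FDR 0.989). Centred on the median of each library the width did not pass the test (0.13, FDR 0.270), and without untreated replicate 3, maltonis replicate 2 or maltonis replicate 3 its FDR was 0.0503 to 0.0549.

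H3K27ac formed a block over DNMT1 that reached well beyond the gene. The joined region spanned 310.0 kb (chr19:10178001-10488000) and covered 100% of the DNMT1 window in all 6 libraries. The peak over the DNMT1 5′ end was 140.8, 132.2 and 133.2 kb wide in untreated cells and 144.0, 207.2 and 135.2 kb after maltonis, which ranked from 1 to 7 by width among 32024 to 36288 peaks. The region held 49971, 51322 and 50282 reads in untreated cells and 47462, 55187 and 51838 after maltonis, and the conditions overlap. The fitted log2 fold change of 0.07 (SE 0.015, FDR 0.00193) passed the FDR and not the fold, and with the length offset its FDR was 0.0149. Density was 156 to 179 reads per kb over this region. The highest island score in it fell from 114238, 122112 and 115804 to 104060, 88610 and 75713, as in 35.4% of regions, and the block lay in 3, 4 and 5 peaks in untreated cells and 5, 5 and 7 after maltonis. DNMT1 was the other member gene whose H3K27ac region held, at some place in its 310.0 kb, bases in 1 peak in each untreated library that were divided in each maltonis library.

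**Figure D4:**
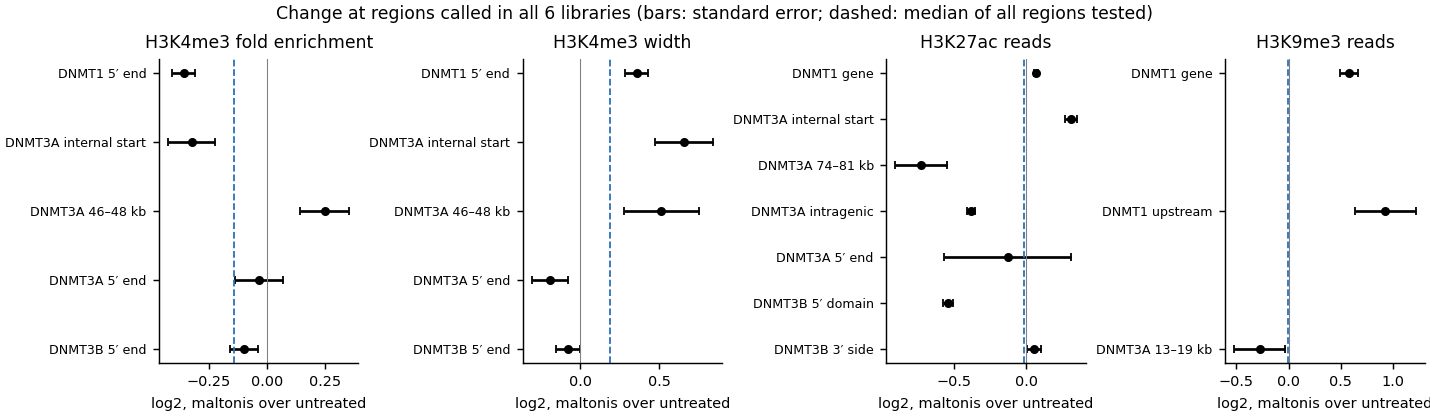
Log2 change of maltonis over untreated cells for each region called in all 6 libraries, for H3K4me3 fold enrichment and width (limma) and H3K27ac and H3K9me3 reads (edgeR). Points are fitted values, bars standard errors and dashed lines the median of all regions tested. H3K27ac falls over the DNMT3B 5′ domain (−0.54) and rises over the internal DNMT3A start (0.31), and H3K9me3 over the DNMT1 gene stands at 0.58.

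Over the 3 genes, H3K4me3 fold enrichment was lower at 2 of 5 tested regions (background 43.5%) and higher at 0 (3.63%). H3K4me3 width was greater at 2 of 5 (38.5%) and smaller at 0 (1.76%). By limma, 1 of the 5 also had an unadjusted p below 0.05 in the direction of a higher fold enrichment, the intragenic DNMT3A peak. Of all 12470 regions, 613 had one in that direction. For a smaller width, 0 of the 5 had one, against 377 of all regions. Both criteria together were met by 1 of 7 H3K27ac regions for a decrease (19.2%) and 0 for an increase (8.18%). For H3K27ac, 3 of 7 regions were lower at the FDR alone (27.3%) and 2 of 7 higher (28.9%). The H3K4me3 and H3K27ac shares are near those of all regions. For H3K9me3, 1 of 3 regions was higher at the FDR alone (0.401%) and 0 lower (0.0141%). Those H3K9me3 shares count regions of every length and read number, and none was computed among regions as large as that of DNMT1. Covered length per window, flanks included, overlapped between conditions for every other pair of gene and mark. H3K27ac covered 40.4 ± 5.60 kb of the DNMT3B window in untreated cells and 30.0 ± 3.91 kb after maltonis, and 68.7 ± 13.5 kb and 52.1 ± 3.78 kb of the DNMT3A window (SD, n = 3, exact permutation p = 0.200 for each). Over the whole lists H3K27ac coverage fell as well, from 217.8 to 229.8 Mb in untreated libraries to 171.9 to 185.0 Mb in maltonis libraries. Within the gene spans alone, without the flanks, the H3K27ac differences were −7.13 kb at DNMT3B and −17.2 kb at DNMT3A, each with the smallest possible exact permutation p of 0.100.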

How the data were processed

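ChIP-seq peak lists of 18 NB4 libraries (3 marks, 2 conditions, 3 biological replicates) were used, with groups and replicate numbers from the sample titles. Reads of 51 bases were aligned to hg19 with BWA and handled with SAMtools, per the labels and the study's methods. For H3K4me3 the authors called broad peaks with MACS2, and the deposited columns used were the fold enrichment ratio and the −log10 q. For H3K27ac and H3K9me3 the study's methods name epic2 and the submitters' processing notes SICER, and the deposited columns used were the read count, which is not normalised, and the island score. Caller versions and controls were not given in the sources used here. The deposited −log10 p-values of H3K4me3 were not used.

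Peaks of the 6 libraries of a mark that overlapped by at least 1 bp were joined, and values were summed (reads, called length) or taken from the strongest peak of a library. Gene spans in hg19 and the members and measures were chosen with earlier results of these data known. Regions called in all 6 libraries were fitted across the genome, read counts with edgeR 4.0.16 (quasi-likelihood, TMM; calls at FDR of at most 0.01 and log2 fold change of at least 0.58, the study's criteria) and log2 fold enrichment and width with limma 3.58.1 (FDR of at most 0.05, no pseudocount), in R 4.3.3. FDR is the Benjamini-Hochberg adjusted p over all regions of a mark. Alternatives included DESeq2 1.42.0, the called length as an offset and gene spans without flanks. Regions named are those over a 5′ end, those exclusive to a condition and those called in all 6 libraries, and others are counted. Percentages beside counts are shares of all regions tested. Scripts were tested on simulated data. Depth is given as the reads inside the deposited peaks, and it limits the weak regions of under about 100 reads most. No hg19 annotation was used, so other genes of the methylation pathway (DNMT3L, UHRF1, the TET genes) were not analysed here.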

Additional observations from a re-analysis of the deposited data

How the results depend on the processing

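The limits lie mainly in the peak calls. Reads and island scores move with the length called in each library, the weak DNMT3A and upstream DNMT1 regions hold few reads, H3K4me3 has no counts, and 3 libraries against 3 cannot give p below 0.1 for a single value. Replicate numbers were not used to pair the libraries in the main fits. Residuals of same-numbered libraries correlated between −0.0197 and 0.0297, and not every library correlated best with its own number. With 3 libraries per condition, these correlations cannot show whether same-numbered libraries came from the same culture. With the replicate block, H3K4me3 width was called greater at 1 member (2 without the block) and at 2582 of all regions (4803), H3K27ac was called lower at 0 members (1), H3K9me3 was called higher at 11 regions (36), and the joined region at the DNMT3A 5′ end moved from −0.13 to 0.04.

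Centred on each library's median, H3K4me3 fold enrichment was called lower at 1 member (2 before) and higher at 1 (0 before), width greater at 0 (2) and smaller at 2 (0), and over all regions fold enrichment was lower at 1683 and higher at 1811 (5422 and 453 before) and width greater at 874 and smaller at 1545 (4803 and 220). The DNMT3B and DNMT3A 5′-end fold enrichments moved to 0.06 and 0.12. For fold enrichment times width the counts were 1 higher and 0 lower, with 0.33 at the internal DNMT3A start and 581 and 359 of all regions. With −log10 q, an added measure, 1 member was higher and 2 lower. Under the study's criteria fold enrichment was called at 0 members. The internal DNMT3A and DNMT3B H3K4me3 peaks changed rank by 6.10 and −15.0 percentile points by −log10 q (−4.53 and 3.13 by fold enrichment), and the DNMT3B and DNMT1 H3K27ac regions by −13.9 and −0.0667 by score (9.07 and 0.267 by density). With the strongest 75% of peaks, H3K4me3 covered 0.463 kb more of the DNMT1 window after maltonis (−0.123 kb with all peaks), and the maltonis-exclusive H3K27ac region became 0. H3K27ac members called lower were 2 without TMM (the DNMT3B 5′ domain joined at −0.58, FDR 7.43e-07), 0 with the length offset, 0 with peaks merged within 1000 bp and 0 among regions of similar called length, an added choice under which DNMT1 stood at −0.11. The region 73.5 to 80.9 kb into DNMT3A became 0.10 when merging fused it with the internal start, and the DNMT3A 5′-end region became 0.87 with the length offset and 1.19 with its 5′ peak alone (added), where 1 member was called higher. With a mean of at least 100 reads, H3K9me3 was called higher at 1 member (0.59, FDR 0.00813), and over all alternatives that kept every library its FDR there ran from 3.14e-07 to 0.149. Over all regions DESeq2 called 132 higher and 39 lower for H3K9me3 (36 and 2 in edgeR), and the length offset 459 lower for H3K27ac (3840). The cause of these shifts was not tested beyond what each setting changes by construction.

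Leaving out 1 library at a time, the H3K4me3 covered length differed by −0.524 to 0.670 kb at DNMT1 and that of H3K9me3 by −1.83 to 0.567 kb at DNMT3A. Members called ran from 0 to 1 (higher) and 1 to 2 (lower) for H3K4me3 fold enrichment, 0 to 2 for width, 0 to 1 for higher H3K9me3 and 0 to 1 for lower H3K27ac. The DNMT3A 5′-end values ran from −0.09 to 0.06 for H3K4me3 fold enrichment and from −0.55 to 0.14 for H3K27ac reads.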
